A study of Mus musculus with 8 samples.

Results

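Notch signalling was examined in mouse ESCs through 10 genes chosen by name, namely the 4 receptors Notch1, Notch2, Notch3 and Notch4, the 4 ligands Dll1, Dll3, Jag1 and Jag2, and Hes1 and Hey1, the classical transcriptional targets of the pathway. Each of the 10 was read by 1 probe set that names it alone, out of 19938 genes with such a probe set. E14 cells, a feeder-independent ESC line grown with LIF, stably carried either an shRNA against Kdm2b (knockdown) or a scrambled shRNA (control), each delivered by a lentivirus with puromycin selection. For each group, total RNA of 4 samples was measured on Affymetrix Mouse Gene 1.0 ST arrays, each sample on an array of its own. Knockdown replicates 1 to 4 were at passages 27, 28, 29 and 30 and control replicates 1 to 4 at passages 28, 29, 30 and 31. Since 1 shRNA was used per group and the labels name no independently derived lines, the p-values measure the spread between samples, which may be technical in part.

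Notch receptors are cut in the membrane when a Delta or Jagged ligand on a neighbouring cell binds them. The freed intracellular domain enters the nucleus, where it joins the DNA binding protein RBPJ and activates genes such as those of the Hes and Hey families, which encode repressors that hold back neuronal differentiation. Mouse ESCs express receptors and ligands of the pathway, which is best known in these cells for its part in the choice of neural fate. KDM2B, the protein depleted here, binds non-methylated CpG dinucleotides and brings a variant PRC1 complex to CpG islands.

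Because KDM2B reads CpG dinucleotides, the CpG content of the promoters was examined first. Windows of 250 bases upstream of a listed transcription start were taken from RefSeq (GRCm38.p6). They were found for 8 of the 10 genes, in 9 windows since Dll1 has a pair of starts. Hes1 and Hey1 had no entry in the source used. The windows of Notch1 and Jag1 are printed because these were the genes whose signal changed, and those of Jag2 and Notch4 because they hold the most and the fewest CpG dinucleotides of the 9. Bases are given 5′ to 3′ and capitals mark each CpG.
Notch1 (chr2:26503823-26504072, minus strand): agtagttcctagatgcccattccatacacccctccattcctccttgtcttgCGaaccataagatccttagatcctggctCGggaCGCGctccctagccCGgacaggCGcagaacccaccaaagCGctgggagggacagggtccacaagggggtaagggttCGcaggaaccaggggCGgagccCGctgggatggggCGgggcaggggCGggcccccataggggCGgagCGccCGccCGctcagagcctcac
Jag1 (chr2:137116521-137116770, minus strand): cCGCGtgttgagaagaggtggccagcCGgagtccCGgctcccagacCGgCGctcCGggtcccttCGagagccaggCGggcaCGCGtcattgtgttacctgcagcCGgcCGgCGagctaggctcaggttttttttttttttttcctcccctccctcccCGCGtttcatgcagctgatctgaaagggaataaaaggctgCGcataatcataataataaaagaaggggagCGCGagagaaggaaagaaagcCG
Jag2 (chr12:112929496-112929745, minus strand): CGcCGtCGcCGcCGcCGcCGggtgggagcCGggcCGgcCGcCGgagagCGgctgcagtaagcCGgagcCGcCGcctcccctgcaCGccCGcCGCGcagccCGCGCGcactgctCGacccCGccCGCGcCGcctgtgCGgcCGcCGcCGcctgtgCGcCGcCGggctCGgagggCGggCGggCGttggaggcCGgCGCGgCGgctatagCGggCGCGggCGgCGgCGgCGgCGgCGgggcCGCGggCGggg
Notch4 (chr17:34564045-34564294, plus strand): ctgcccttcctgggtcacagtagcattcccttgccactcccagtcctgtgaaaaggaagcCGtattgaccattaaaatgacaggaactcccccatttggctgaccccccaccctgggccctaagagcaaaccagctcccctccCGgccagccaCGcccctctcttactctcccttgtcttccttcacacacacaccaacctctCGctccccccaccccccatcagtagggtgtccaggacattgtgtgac

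The Notch1 window held 16 CpG dinucleotides and the Jag1 window 20. Over the 32851 windows of all genes the median was 6 and the upper quartile 16. The Jag2 window held 54, a number exceeded by 3 windows of the whole table. The annotated span of Jag2 (chr12:112907803-112929812, minus strand) covers this window, so that its listed start is internal to the gene. Notch4 had 4 and was the only one of the 9 windows below the median. The remaining windows lay between, with 34 for Notch2, 17 for Notch3, 10 for Dll3, and 13 and 21 for the 2 starts of Dll1. The Dll1 window with 21 likewise lies inside the annotated span of its gene. The 8 windows above the median included those of Jag1, which fell in the knockdown, and of Notch1, which rose. They also included those of Jag2 and Notch2, whose differences did not pass the test. A CpG count in 250 bases is not a measure of KDM2B binding, and its relation to the changes was not tested. The core letters TGGGAA of the RBPJ site, searched on both strands, were in 0 of the 9 windows and in 21.6% of all windows. This says only that these letters are not in these 250 bases.

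Of the 10 Notch genes, 1 rose and 1 fell in the knockdown arrays at an adjusted p under 0.05 (limma, with Benjamini-Hochberg adjustment over all probe sets). These were the receptor gene Notch1, which rose 1.35-fold, and the ligand gene Jag1, which fell by 21.7%. The other 8 genes did not pass. Over all genes, 10.3% passed at this threshold, 5.75% higher and 4.55% lower, so that 2 of 10 is to be read against about 1 in every 10 genes. The gene rule of the study's methods asks in addition for a change of at least 1.5-fold. None of the 10 genes met it with limma, against 2.85% of all genes (1.42% higher and 1.43% lower), and 2 of the 10 had an unadjusted p under 0.05, against 30.4% of all genes. The median log2 fold change of the 10 genes was -0.05 and that of all genes 0.05, while the median size of the change, sign aside, was 0.16 for the 10 and 0.12 for all.

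The values are log2 signals made by the authors with RMA. This procedure corrects background, brings the probe intensities of all arrays to the same distribution and then summarises the probes of a probe set. The medians of the resulting values still ran from 8.47 to 8.53 over the arrays. All 10 probe sets were brighter than most on the arrays, with means above 59.2% (Dll3) to 81.8% (Notch1) of all probe sets. Signals of different probe sets depend on their probes, and no gene's level is compared with that of another gene. In bulk RNA, fewer cells that transcribe a gene and less RNA per cell cannot be told apart.

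**Figure D1:**
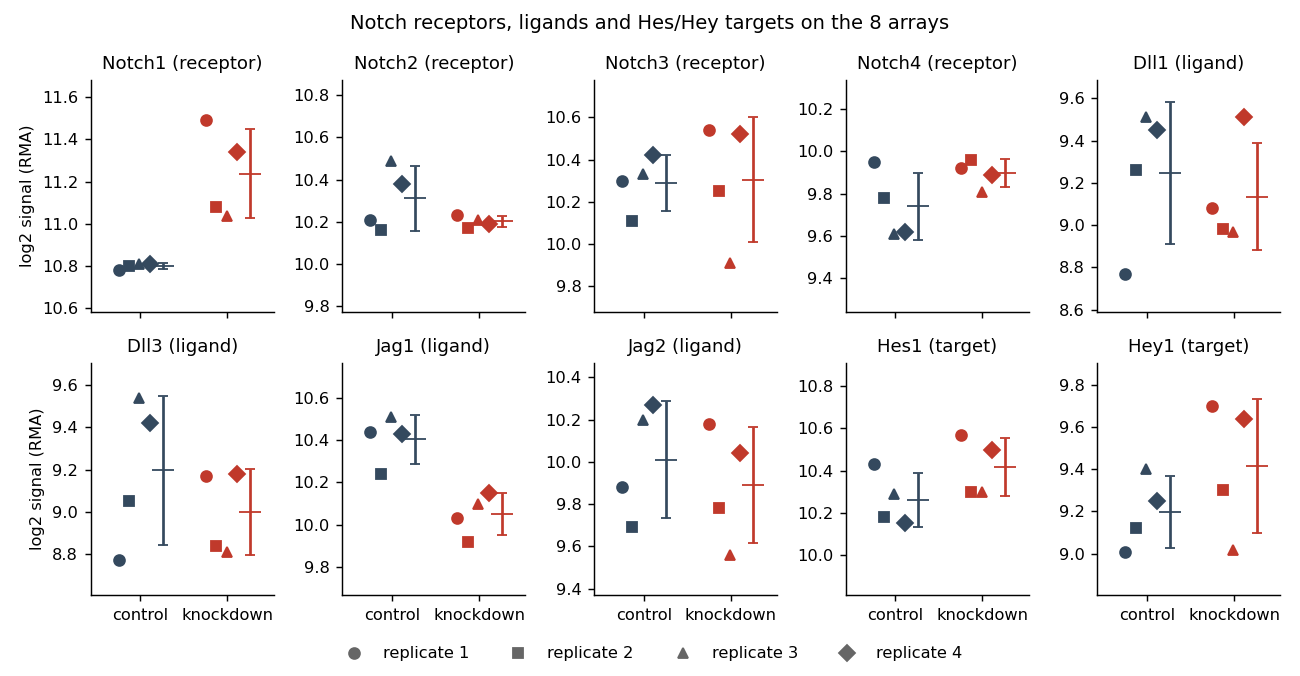
Log2 signal (RMA) of the 10 Notch genes on each of the 8 arrays, in panels that all span the same range of log2 signal. Symbols mark the replicate number, and the bar beside each group is the mean and SD (n = 4 arrays). Knockdown and control arrays do not overlap for Notch1, which is higher in the knockdown, and for Jag1, which is lower, whereas they overlap for the other 8 genes.

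Among the receptors, Notch1 was the only gene past the test. Knockdown replicates 1 to 4 had a log2 signal of 11.49, 11.08, 11.04 and 11.34, compared with 10.78, 10.80, 10.81 and 10.81 for control replicates 1 to 4. Every knockdown array lay above every control array, and the knockdown arrays were spread far more widely (SD 0.21, n = 4) than the control arrays (SD 0.01, n = 4), with replicates 1 and 4 well above replicates 2 and 3. The log2 fold change was 0.44 (standard error [SE] 0.10, 95% confidence interval [CI] 0.21 to 0.66, limma adjusted p = 0.0316). On a linear scale this is 1.35-fold with an interval of 1.16 to 1.58, which reaches past the 1.5-fold limit of the gene rule. Non-overlap of the groups was common in these data, occurring in 21.0% of all genes.

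The log2 fold change of Notch1 was positive in all 8 fits with 1 array left out, but its call changed in 6. Its adjusted p stayed under 0.05 with knockdown replicate 1 or 3 left out, and was 0.0536 to 0.0896 (limma) when any other array, controls included, was left out, with a log2 fold change of 0.35 to 0.50 over the 8 fits. With passages 28 to 30 alone and passage as a block, a fit on fewer arrays, the log2 fold change was 0.36 (limma adjusted p = 0.162).

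Notch2 and Notch3, which encode receptors related to NOTCH1, did not pass the test. Notch2 had a log2 signal of 10.23, 10.17, 10.21 and 10.19 in the knockdown replicates and 10.21, 10.16, 10.49 and 10.38 in the control replicates. The knockdown arrays lay close together, at the level of control replicates 1 and 2, and below control replicates 3 and 4. The log2 fold change of Notch2 was -0.11 (SE 0.08, 95% CI -0.29 to 0.07, limma adjusted p = 0.409).

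Notch3 varied more within the knockdown group than between the groups. Its log2 signal was 10.54, 10.25, 9.91 and 10.52 in the knockdown replicates, with replicate 3 below every other array, and 10.30, 10.11, 10.33 and 10.42 in the control replicates. Between the group means, the log2 fold change was 0.02 (SE 0.14, 95% CI -0.30 to 0.34, limma adjusted p = 0.947), and its sign turned in several alternative fits, among them that with each array centred on its median.

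Notch4, a receptor gene best known from endothelial cells, had a log2 signal of 9.92, 9.96, 9.81 and 9.89 in the knockdown replicates and 9.95, 9.78, 9.61 and 9.62 in the control replicates. Only control replicate 1 reached the level of the knockdown arrays, and control replicates 2 to 4 lay below all of them. For Notch4 the log2 fold change was 0.16 (SE 0.08, 95% CI -0.03 to 0.35, limma adjusted p = 0.277). Of 6 endothelial markers measured beside it, 2 had means above the median of all values, which was 8.49, and the other 4 lay below it. The 2 brighter ones moved in opposite directions. Pecam1, which ESCs also express, was at 11.42 in the knockdown and 10.86 in the control (limma adjusted p = 0.0123), and Tek was at 8.97 and 9.74 (limma adjusted p = 0.0288). The mean of the 6 overlapped between the groups, at 8.72 to 8.80 in the knockdown and 8.72 to 8.83 in the control arrays. A further 6 probe sets named Notch4 together with Sympk and were not used for the gene. Their log2 fold changes ran from -0.0043 to 0.10.

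All 4 ligand genes among the 10 had a negative log2 fold change, as had 7642 of all 19938 genes. Of the 4 other ligand genes read below, 2 had a positive and 2 a negative one. Among the 4 chosen ligand genes, Jag1 alone passed the test. Jag1, which encodes a Jagged type ligand, had a log2 signal of 10.03, 9.92, 10.10 and 10.15 in knockdown replicates 1 to 4 and of 10.44, 10.24, 10.51 and 10.43 in control replicates 1 to 4. Every knockdown array was below every control array, the nearest being knockdown replicate 4 and control replicate 2. The SD was 0.10 in the knockdown and 0.12 in the control group (n = 4 each). For Jag1 this gave a log2 fold change of -0.35 (SE 0.08, 95% CI -0.53 to -0.18, limma adjusted p = 0.0286). The signal fell by 21.7%, within the 1.5-fold limit over the whole interval.

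That of Jag1 was negative in all 8 such fits, and its call likewise changed in 6. The adjusted p was under 0.05 with knockdown replicate 3 or control replicate 2 left out, and was 0.0507 to 0.0881 (limma) when any other array was left out. Its log2 fold change ran from -0.41 to -0.31 over these 8 fits. It was -0.34 (limma adjusted p = 0.200) with passages 28 to 30 alone and passage as a block. With the replicate number as a block, Notch1 and Jag1 both passed, at adjusted p = 0.0400 and 0.0178 (limma).

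Jag2, the other Jagged gene, had the most CpG-rich of the windows read above. Its log2 signal was 10.18, 9.78, 9.56 and 10.04 in the knockdown replicates and 9.88, 9.69, 10.20 and 10.27 in the control replicates. The groups overlapped over most of their ranges. Jag2 had a log2 fold change of -0.12 (SE 0.17, 95% CI -0.50 to 0.27, limma adjusted p = 0.694).

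The Delta type ligand genes Dll1 and Dll3 were the most variable of the 10 within the control group. DLL1 activates Notch receptors on neighbouring cells, whereas DLL3 is a divergent member that acts mostly within its own cell. Dll1 had a log2 signal of 9.08, 8.98, 8.97 and 9.51 in the knockdown replicates and 8.77, 9.26, 9.51 and 9.45 in the control replicates. Dll3 had 9.17, 8.84, 8.81 and 9.18 in the knockdown replicates and 8.77, 9.05, 9.54 and 9.42 in the control replicates. For both genes, control replicate 1 was the lowest of all 8 arrays, control replicates 3 and 4 were the highest controls, and knockdown replicate 4 was the highest knockdown array.

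The difference between the groups was small beside this spread. The log2 fold change was -0.11 for Dll1 (SE 0.18, 95% CI -0.52 to 0.30, limma adjusted p = 0.730). It was -0.20 for Dll3 (SE 0.17, 95% CI -0.60 to 0.20, limma adjusted p = 0.510), the only interval besides that of Notch1 to reach past 1.5-fold.

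**Figure D2:**
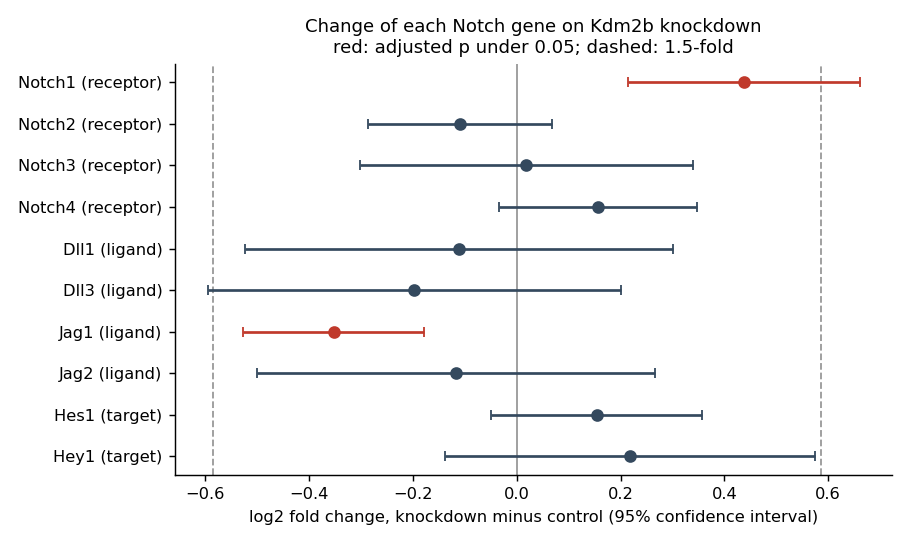
Log2 fold change (knockdown minus control) of the 10 Notch genes with 95% confidence intervals of limma, 4 arrays per group. Genes at an adjusted p under 0.05 are red, and dashed lines mark 1.5-fold in either direction. The intervals of Notch1 and Jag1 leave out 0, those of the other 8 genes hold it, and only those of Notch1 and Dll3 cross a dashed line.

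The transcriptional targets Hes1 and Hey1, whose mRNA is widely used as a readout of Notch activity, did not pass the test. Hes1 encodes a repressor of proneural genes and had a log2 signal of 10.57, 10.30, 10.30 and 10.50 in the knockdown replicates and 10.43, 10.18, 10.29 and 10.15 in the control replicates. The knockdown array was the higher of the 2 arrays in all 4 replicate numbers, although the groups overlapped. The log2 fold change of Hes1 was 0.15 (SE 0.09, 95% CI -0.05 to 0.36, limma adjusted p = 0.314), or 0.203 once the replicate number entered the fit as a block.

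Hey1, which encodes a related repressor, had a log2 signal of 9.70, 9.30, 9.02 and 9.64 in the knockdown replicates and 9.01, 9.12, 9.40 and 9.25 in the control replicates. Knockdown replicates 1 and 4 lay above all controls, while replicate 3 was at the level of the lowest control array. Hey1 had a log2 fold change of 0.22 (SE 0.16, 95% CI -0.14 to 0.57, limma adjusted p = 0.413).

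Of the 95% confidence intervals of the 10 single genes, 8 lay within a change of 1.5-fold in either direction, namely those of Notch2, Notch3, Notch4, Dll1, Jag1, Jag2, Hes1 and Hey1. A change of Hes1 or Hey1 beyond 1.28-fold or 1.49-fold upwards, respectively, was therefore outside the interval of these arrays. RMA values compress the fold changes of dim probe sets in particular, and the intervals refer to signals and not to numbers of transcripts.

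The arrays of each group followed a common order in most of the genes. Knockdown replicates 1 and 4 were the highest 2 knockdown arrays for 7 of the 10 genes (Notch1, Notch3, Dll1, Dll3, Jag2, Hes1 and Hey1), compared with 26.1% of all genes. Knockdown replicate 3 was the lowest for 8 of the 10, against 40.5% of all genes. Among the controls, replicates 3 and 4 were the highest 2 arrays for 7 genes (Notch1, Notch2, Notch3, Dll1, Dll3, Jag2 and Hey1), against 15.5% of all genes. These shares were looked up after the values had been seen and are a description. Knockdown replicate 3 was also the knockdown array nearest to the controls on the first principal component of all probe sets, which held 51.7% of the variance.

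Kdm2b itself fell by 2.05 on the log2 scale (SE 0.18, limma adjusted p = 0.000891) and its knockdown arrays all lay below the controls. The 8 ESC markers, led by Dppa5a and Tdgf1, were bright on all arrays. Their list mean was 13.24 to 13.29 in the knockdown and 12.94 to 13.17 in the control arrays. All 8 had a positive log2 fold change, as had 12296 of all 19938 genes. Of the 8, 6 were higher at an unadjusted p under 0.05 (limma), against 16.8% of all genes, and 0 passed the adjusted threshold. Markers of other cell types were led in brightness by Tubb3 and Sox3 (neural), Gata6 and Gata4 (primitive endoderm), and Pecam1 and Tek (endothelial). The brightest of the remaining lists were Thy1 and Col1a1 (fibroblast), Eomes and Gsc (mesendoderm), and Krt8 and Krt18 (trophoblast). As lists, all of these lay far below the ESC markers. The mean of 6 neural markers, of progenitors and neurons, was lower in the knockdown, at 8.99 to 9.08 against 9.25 to 9.50. Pax6 was lower by the gene rule, while 3 of the 6 (Tubb3, Sox1 and Sox3) had positive log2 fold changes of 0.03 to 0.29. The mean of 6 primitive endoderm markers was higher, at 8.66 to 8.92 against 8.49 to 8.62. The list means of endothelial, fibroblast, mesendoderm and trophoblast markers overlapped between the groups, with Tek and Krt8 lower and Thy1 higher by the gene rule. The part of these shifts in the values of Notch1 and Jag1 was not tested.

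The machinery around the 10 genes was then read from lists of further pathway genes, arranged by role. Of 67 such genes measured besides the proneural genes, 1 rose by the gene rule, 0 fell and 66 did not meet it, and 3 were higher and 4 lower at an adjusted p under 0.05. These 7 genes amount to about the share of all genes at this threshold (10.3%), and the lists had a median log2 fold change of 0.05, as for all genes. Before adjustment, 18 of the 67 genes were higher and 9 lower at p under 0.05, where 16.8% of all genes were higher and 13.6% lower. The 7 genes are named here because their number is small, after their values were seen.

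Genes that modify and cut the receptors moved in both directions. Rfng, which encodes a Fringe glycosyltransferase that sets the response of receptors to Delta and Jagged ligands, had a log2 signal of 9.67, 9.51, 9.75 and 9.63 in the knockdown replicates and 10.10, 10.17, 10.10 and 10.01 in the control replicates. All knockdown arrays were lower, and the signal fell by 27.1% (log2 fold change -0.46, SE 0.07, limma adjusted p = 0.00708), a call that held without any 1 array.

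The 2 proteases that release the extracellular part of Notch showed opposite signs. Adam10 rose by 0.57 on the log2 scale (SE 0.13, limma adjusted p = 0.0298), from 9.64 to 10.22 in the control arrays to 10.32 to 10.52 in the knockdown arrays. Adam17 fell by 0.36 on the log2 scale (SE 0.06, limma adjusted p = 0.0104), with 11.39 to 11.44 in the control and 10.97 to 11.14 in the knockdown arrays. For both genes the groups did not overlap. The call on Adam17 held without any 1 array, whereas that on Adam10 held with knockdown replicate 3 or control replicate 1 left out and was lost when any other array was, at an adjusted p of 0.0656 to 0.0897 (limma). Lfng and Mfng, the other Fringe genes, and Pofut1, Poglut1 and Furin did not pass.

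Of 6 measured genes of gamma-secretase, the complex that makes the last cut in the receptor, 1 rose. Aph1a, which encodes a scaffold subunit, was read by a pair of probe sets with log2 fold changes of 0.25 and 0.25 (SEs 0.06 and 0.06, limma adjusted p = 0.0297 and 0.0332). The call was lost without any 1 array but knockdown replicate 3 and control replicate 1, at an adjusted p of 0.0539 to 0.0960 (limma). In the ligand ubiquitin ligases, which drive the uptake of ligands that activates receptors, all 4 genes had positive log2 fold changes of 0.14 to 0.33 and an unadjusted p under 0.05, which 16.8% of all genes reached in this direction, but 0 passed after adjustment. The smallest p among them was that of Neurl1a, with a log2 fold change of 0.29 (SE 0.09, limma adjusted p = 0.0763).

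None of the 10 measured genes of the RBPJ activator complex passed with limma, while 2 had an unadjusted p under 0.05. Maml1, which encodes a Mastermind coactivator, had the smallest p, with a log2 fold change of -0.18 (SE 0.06, limma adjusted p = 0.0882). Rbpj, the DNA binding subunit, was read by a pair of probe sets with log2 fold changes of -0.03 and 0.09 (limma adjusted p = 0.940 and 0.493).

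Of 15 measured corepressor genes, 1 rose by the gene rule. Tle5, which encodes a short Groucho family protein that counters the longer ones, had a log2 signal of 13.13, 12.97, 12.94 and 13.02 in the knockdown replicates and 12.77, 12.41, 11.91 and 12.10 in the control replicates. The control arrays were widely spread below a tight knockdown group, with a log2 fold change of 0.72 (SE 0.17, limma adjusted p = 0.0352). The call held with knockdown replicate 3 or control replicate 1 left out and was lost when any other array was, at an adjusted p of 0.0741 to 0.0918. L3mbtl3 and Kdm5a, which encode a chromatin reader and a histone demethylase that act with RBPJ, fell by 0.48 and 0.30 on the log2 scale (SEs 0.09 and 0.07, limma adjusted p = 0.0187 and 0.0404). L3mbtl3 no longer passed with control replicate 3 or knockdown replicate 2 or 4 left out, at 0.0510 to 0.0596, and Kdm5a with any 1 array left out but knockdown replicate 3, at 0.0688 to 0.107 (limma adjusted p).

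Inhibitors and turnover factors of the pathway included no gene past the adjusted threshold in limma among 12, though before adjustment 5 were higher and 1 lower at p under 0.05, against 30.4% of all genes in either direction. Numb, which encodes an inhibitor of Notch that is shared unequally between daughter cells, had the smallest p, with a log2 fold change of 0.25 (SE 0.07, limma adjusted p = 0.0627). The 4 other ligand genes, Dll4, Dlk1, Dlk2 and Dner, had 0 calls, and Dll4, the smallest p of these, had a log2 fold change of 0.16 (SE 0.07, limma adjusted p = 0.188). Of the 8 other Hes and Hey family genes none passed with limma, at an adjusted or unadjusted p, and their log2 fold changes lay between -0.08 and 0.15. Heyl had the smallest p of this family, with a log2 fold change of 0.15 (SE 0.08, limma adjusted p = 0.245).

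Of 7 measured proneural bHLH genes, which Hes repressors hold back, 1 rose and 1 fell by the gene rule, which 1.42% of all genes met upwards and 1.43% downwards. Neurog3 was higher, at 9.05 to 9.35 in the knockdown against 8.50 to 8.74 in the control arrays, and Neurod1 was lower, at 8.46 to 9.10 against 9.70 to 10.78. The other 5 (Neurog1, Neurog2, Neurod4, Atoh1 and Olig2) had log2 fold changes of 0.03 to 0.08 and did not pass. With passages 28 to 30 alone, Neurod1 passed, while Neurog3 and the 7 genes of the other roles were at a limma adjusted p of 0.0560 to 0.253.

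**Figure D3:**
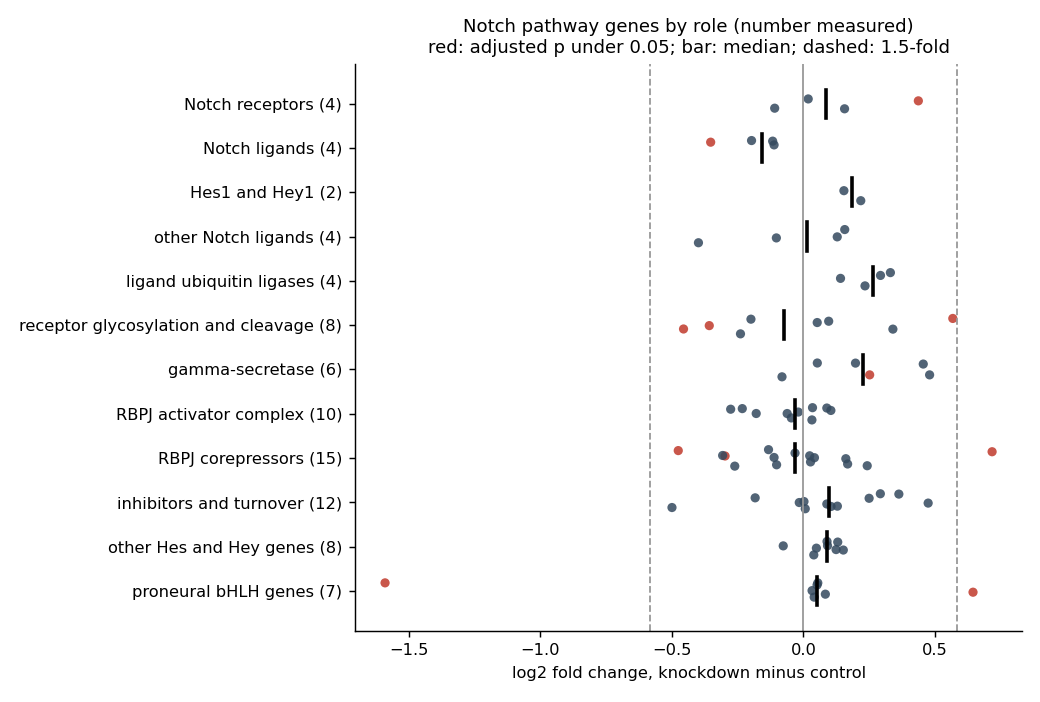
Log2 fold change (knockdown minus control) of the 10 Notch genes and of the further pathway genes by role, 1 point per gene (its probe set with the smallest p), with the number of genes measured in parentheses. Black bars are medians, genes at an adjusted p under 0.05 are red, and dashed lines mark 1.5-fold. Besides Notch1 and Jag1, 9 genes are red, and only Tle5, Neurog3 and Neurod1 lie beyond a dashed line.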

How the data were processed

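RNA from 4 knockdown and 4 control samples was read on 1 array each. The deposited values are log2 signals, which the authors obtained by RMA (oligo, version 1.18.1 in the submitters' processing notes). The genome build behind the probe sets is not given in the sources used here. Probe sets were named through GEO's platform annotation, with symbols updated by gene identifier through RefSeq (GRCm38.p6). Of 35556 probe sets, 21789 carry 1 gene name, 1621 several, and 12146 none in this annotation. Limma 3.58.1 in R 4.3.3 (lmFit, then eBayes with the default prior) was fitted to all probe sets, without a block, and p-values are two-sided. The gene rule of the study's methods calls a gene when a majority of its probe sets pass an adjusted p of 0.05, provided that the one with the smallest p changed at least 1.5-fold. The number of arrays limits the precision.

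The 10 genes and the lists were chosen with earlier results of these data known. All 10 were named, and of each further pathway list the genes past the gene rule and the one with the smallest p, and for marker lists the genes past the rule or brightest. Some listed genes were not analysed here. Same-numbered arrays deviated together from their group means (r = 0.239, 0.118, 0.355 and 0.222 for replicates 1 to 4), and the labels state that the samples were collected in parallel, although same-numbered arrays were 1 passage apart. The methods name no block, so that the reported fit has none and the blocked fit is an alternative. Alternatives were a replicate block, each array left out, passages 28 to 30, median centring, quantile normalization, a filter on dim probe sets, a variance trend, array weights, probe sets of 1 gene only, and no fold minimum. The fit was tested on simulated data, and figures were drawn with matplotlib 3.10.9.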

Additional observations from a re-analysis of the deposited data

Results flagged for a closer look

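In 25 genes, each group of 4 arrays was searched for an array far from the other 3, which made 50 groups, of which chance flags about 1 in 20. A single one was found. For Notch1, control replicate 1 was at a log2 signal of 10.78, below the next control array at 10.80, with its gap taking a share of 0.848 of a control range that was itself very narrow.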

How the results depend on the processing

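With the replicate number as a block, 652 genes met the gene rule, 3 further pathway genes did so, 0 of the 10 Notch genes met it and 2 passed the adjusted threshold, with no call changed among the 10. With passages 28 to 30 alone and passage as a block, 160 genes and 1 further pathway gene (Neurod1) met the rule, 0 of the 10 Notch genes passed the adjusted threshold, Notch1 had a log2 fold change of 0.36 and Jag1 of -0.34, and Notch3 turned to -0.016. Notch3 also turned to -0.00056 with each array centred on its median and to -0.037 with array weights. Under array weights Notch4 passed, with a log2 fold change of 0.23 (limma adjusted p = 0.0419). Without the fold minimum, 2 of the 10 Notch genes, 9 further pathway genes and 2055 of all genes counted. With each array left out in turn, 0 to 2 of the 10 Notch genes passed the adjusted threshold, 2 to 6 further pathway genes and 358 to 829 of all genes met the rule, and log2 fold changes ran from 0.35 to 0.50 for Notch1, from -0.41 to -0.31 for Jag1 and from -0.061 to 0.15 for Notch3. In each of these fits 0 of the 10 Notch genes met the 1.5-fold rule. The fits on fewer arrays have less power by construction, and the cause of the other changes was not tested. The direction held in all fits for the 9 Notch genes other than Notch3.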
